A study of Oryza sativa with 6 samples.

Results

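The 9 genes described here (IAA1, IAA4, IAA9, IAA10, IAA12, IAA13, IAA14, IAA20 and IAA26) are rice Aux/IAA genes chosen by their higher signal after auxin treatment than in the solvent control. They are 9 of 26 Aux/IAA genes with a probe set of their own on the array, among 17905 genes named by such probe sets. RNA came from whole light-grown seedlings of IR64, an indica rice variety, at 7 days of age. One group was kept in 50 µM indole-3-acetic acid (IAA, the main natural auxin), one in 50 µM benzyl aminopurine (BAP, a synthetic cytokinin), and the control group received 0.1% dimethyl sulfoxide. Seedlings taken at 1 h and 3 h were pooled in equal amounts for every group, so the values average an earlier and a later time. Each group held 2 samples, called biological replicates in the series design, and each sample had its own Affymetrix rice array. In the text, IAA followed by a number is a gene and IAA alone is the hormone.

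Aux/IAA proteins are short-lived nuclear repressors. They bind auxin response factors at auxin-responsive promoters and, in most members, recruit TOPLESS corepressors through a short motif. Auxin joins an Aux/IAA protein to an F-box receptor of the TIR1/AFB family, after which the repressor is ubiquitinated and degraded and the response factors are freed. Many Aux/IAA genes are themselves targets of these response factors, so that their transcripts rise early after auxin and the new repressor protein closes a negative feedback loop. In rice, Aux/IAA genes are known for roles in root branching, gravitropism and shoot form.

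The 9 genes were covered by 12 probe sets, and all 12 were bright enough to be tested. IAA1 had 2 probe sets, IAA4 had 3 and the other 7 genes had 1 each. For IAA1 and IAA4 the brightest probe set stands for the gene unless another is named. A further probe set carried both IAA10 and a second gene and was not used for IAA10. The gene table lists IAA20 as a synonym of IAA4 (LOC4327919) and IAA1 as a synonym of IAA13 (LOC4334069), and both were kept apart here by gene number. Related Aux/IAA genes can bind each other's probes, which leaves the value of any single gene uncertain to that extent.

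Run day split the BAP arrays from the other 4, so BAP and run day cannot be told apart. Both hormone groups were processed in modules 3 and 4 of the fluidics station and the control in modules 1 and 2, so module and hormone cannot be told apart either. The median deposited intensity lay between 16.6 and 23.1 on the 6 arrays. Transcripts of both shoot and root were measured in every sample. The summed intensity of 2 shoot genes (CAB2R and RBCS-C) was 13029 to 13475 in control, 13104 to 13580 in IAA and 13206 to 13622 in BAP arrays. Another shoot gene, RBCS1, was dim on every array, with deposited intensities of 4.3 to 12.3. The summed intensity of 5 root genes (NIP2-1, Lsi2, HAK1, SHR1 and SCR1) was 5609 to 5988 in control, 4468 to 4851 in IAA and 3209 to 3237 in BAP arrays. The summed root level was thus lower on every array of both hormone groups than on the control arrays, but the 5 genes did not move alike. Lsi2 changed by -0.68 with IAA and -1.67 with BAP, and NIP2-1 by -0.44 and -0.89. HAK1 (0.20 with IAA, -0.35 with BAP), SHR1 (0.26 and -0.29) and SCR1 (-0.24 and 0.17) each moved in both directions. In limma, 2 of the 5 root genes (Lsi2 and NIP2-1) were called lower with BAP, 0 with IAA, and 0 of the shoot genes were called with either. Of all tested probe sets, 0.0641% were called lower with BAP and 0.219% with IAA, and 0.210% and 0.632% higher. At an unadjusted p under 0.05 in limma there were 3 of the 5 root genes with BAP and 2 with IAA, beside 7.57% and 10.8% of all tested probe sets. The part of these root gene changes in the results below was not tested. In whole seedlings, fewer cells of a type and less RNA per cell cannot be told apart.

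The first question was how far, and how evenly, the 9 genes rose with IAA. All values are normalized intensities, with changes given on the log2(intensity + 16) scale. Because the rise with IAA chose the genes, these changes are a description and carry no p. IAA20, IAA9 and IAA26 rose most, with mean signals more than 10-fold above the control. IAA4, IAA1, IAA12, IAA10 and IAA14 had changes of more than 1 log2 unit, and IAA13 had the smallest change. The median change over the 9 genes was 1.56, against -0.01 over all 34316 tested probe sets. In limma 8 of the 9 genes were called higher with IAA, beside 0.632% of all tested probe sets, and the exception was IAA14. That count only restates how the genes were chosen. Later calls of these genes with IAA come from the same contrast and show only how a call depends on the settings.

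**Figure D1:**
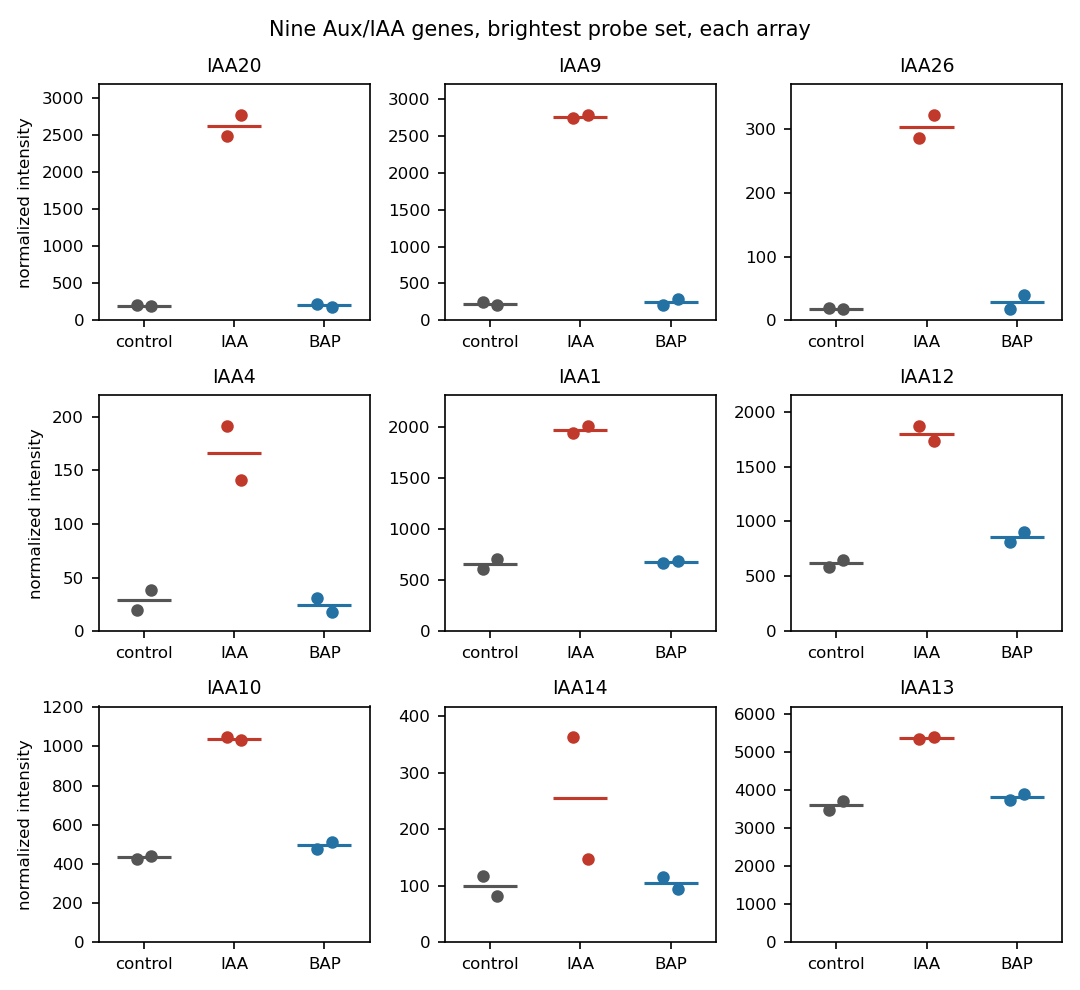
Normalized intensity (vertical axes, linear and starting at 0) of the brightest probe set of each of the 9 genes in control, IAA and BAP seedlings. Points are the 2 arrays of a group and bars their mean. Both IAA arrays lie above every control and BAP array in all 9 panels, and the 2 IAA arrays of IAA14 are far apart, at 363 and 148.

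IAA20 (LOC4340245) read 203 and 189 on the control arrays, 2485 and 2763 on the IAA arrays, and 225 and 182 on the BAP arrays. The IAA mean was 13.4 times the control mean, a log2 change of 3.64 (SE 0.14). Control and BAP arrays overlapped, and both IAA arrays stood far above them. IAA9 (LOC4331061), whose expression in Arabidopsis is known to disturb root gravitropism, read 243 and 210 in control, 2739 and 2778 in IAA and 209 and 287 in BAP arrays. Its log2 change was 3.52 (SE 0.16), and on the log2 scale its 2 IAA arrays were closer than its control or its BAP arrays. IAA26 (LOC4347643) read 19.5 and 17.8 in control, 286 and 322 in IAA and 17.9 and 39.8 in BAP arrays. Its control signal was dim, close to the filter at an intensity of 9.94, so the log2 change of 3.21 (SE 0.24) depends on the constant added before taking logarithms. The change was 3.96 with 1 added and 2.15 with 64 added. For IAA20 the same settings gave 3.74 and 3.37.

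IAA4 (LOC4327919), whose overexpression in rice is known to reduce plant height and auxin sensitivity, was also dim without auxin. Its brightest probe set read 20.4 and 38.5 in control, 191 and 141 in IAA and 30.8 and 18.2 in BAP arrays, a log2 change of 2.02 (SE 0.26). The change was 2.51 with 1 added and 1.30 with 64 added. IAA4 was called in 9 of 13 other settings, and not without control array 1, without IAA array 1, without the filter on dim probe sets or without the intensity trend. The other 2 probe sets of IAA4 changed by 1.87 (SE 0.29) and 1.55 (SE 0.21), so the 3 probe sets of this gene moved alike.

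IAA1 (LOC4323871) read 608 and 709 in control, 1940 and 2005 in IAA and 668 and 691 in BAP arrays on its brightest probe set. The log2 change was 1.56 (SE 0.11). The second IAA1 probe set read 29.4 and 21.3 in control, 30.6 and 27.7 in IAA and 21.4 and 9.64 in BAP arrays, with overlapping control and IAA arrays and a change of 0.13 (SE 0.26). This probe set was dim on every array, at 9.64 to 30.6 beside a filter at an intensity of 9.94. The rise of IAA1 therefore rests on 1 of its 2 probe sets, the brighter one, and the transcripts that each one detects are not given in the sources used here.

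**Figure D2:**
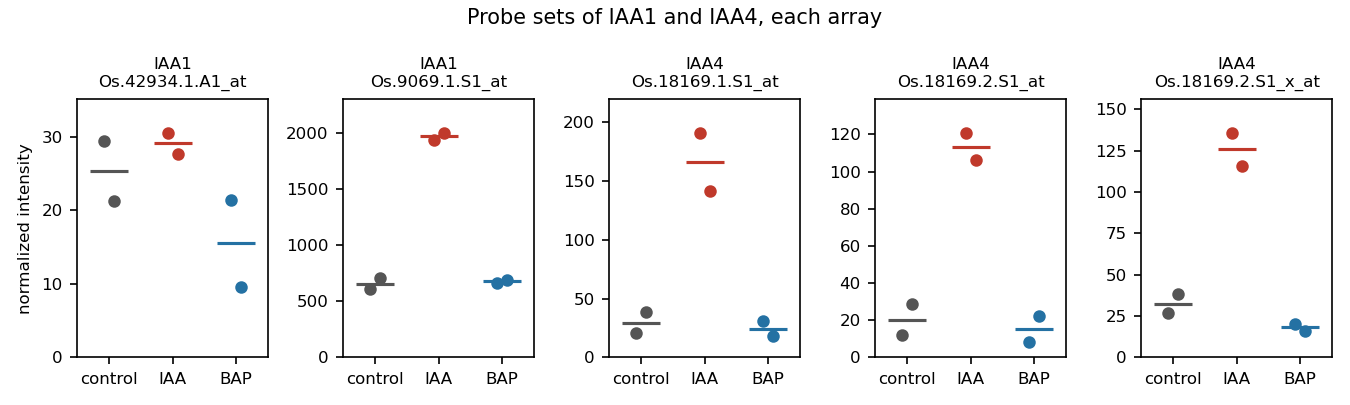
Normalized intensity (vertical axes, linear and starting at 0) of the 2 probe sets of IAA1 and the 3 probe sets of IAA4 in each group, with points for arrays and bars for means. The 3 IAA4 probe sets are all higher in IAA arrays, whereas the first IAA1 panel shows 29.4 and 21.3 in control against 30.6 and 27.7 in IAA arrays.

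IAA12 (LOC4333512), linked in rice to the angle of the leaf blade, read 590 and 653 in control, 1866 and 1728 in IAA and 811 and 903 in BAP arrays. Its log2 change with IAA was 1.51 (SE 0.11). The 3 groups did not overlap, with IAA highest, BAP between and control lowest. IAA10 (LOC4331149), known in rice as a protein that a capsid protein of rice dwarf virus binds and stabilises, read 428 and 440 in control, 1047 and 1031 in IAA and 478 and 514 in BAP arrays. Its change was 1.23 (SE 0.11), and its groups fell in the same order. The probe set shared by IAA10 and another gene read 661 and 637 in control, 601 and 553 in IAA and 530 and 429 in BAP arrays, which is no rise with either hormone.

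IAA13 (LOC4334069), in which a stabilising mutation of the protein is known to reduce lateral root formation in rice, had a narrow range. It read 3483 and 3720 in control, 5346 and 5384 in IAA and 3735 and 3898 in BAP arrays, a log2 change of 0.57 (SE 0.08). The IAA arrays lay 0.52 log2 units or more above the control arrays, but IAA13 was called in 6 of 13 other settings. It was not called without any one of the control and IAA arrays, without rescaling, without the filter or without the intensity trend. IAA14 (LOC4334431) read 117 and 81.5 in control, 363 and 148 in IAA and 115 and 94.7 in BAP arrays. Its change of 1.13 (SE 0.34) had the widest error among the 9 genes, because the first IAA array read 2.45 times the second. The deposited values showed the same gap, at 316.2 and 156.4 before any rescaling. The change was 0.53 without IAA array 1 and 1.74 without IAA array 2, so the size of the IAA14 response is not settled by these arrays. IAA14 was called in 2 of 13 other settings, without rescaling between arrays and without IAA array 2.

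The replicates of the other 8 genes were closer, with IAA array 1 at 0.888 to 1.36 times IAA array 2. Taken per array, the median of the 9 genes stood 1.74 above the control mean on IAA array 1 and 1.59 on IAA array 2, and at 0.07 and 0.11 on the BAP arrays. For 11 of the 12 probe sets both IAA arrays lay above both control arrays, beside 21.1% of all tested probe sets, and the exception was the second probe set of IAA1. This count, too, follows from how the genes were chosen.

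The second question was whether the cytokinin moved the same genes. The BAP arrays played no part in choosing them, but the control arrays did, so this comparison shares its reference with that choice. No gene of the 9 passed the test with BAP in limma: 0 of 12 probe sets were called, beside 0.210% of all tested probe sets called higher and 0.0641% called lower. At an unadjusted p under 0.05 there were 2 of 12, beside 7.57% of all tested probe sets. The median change over the 9 genes was 0.08, against -0.01 over all tested probe sets. Of the 9 genes, 3 had both BAP arrays above both control arrays (17.8% of all tested probe sets) and 0 had both below (19.9%). Among all 12 probe sets the numbers were 3 and 1. The 3 genes were IAA12, IAA10 and IAA13.

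**Figure D3:**
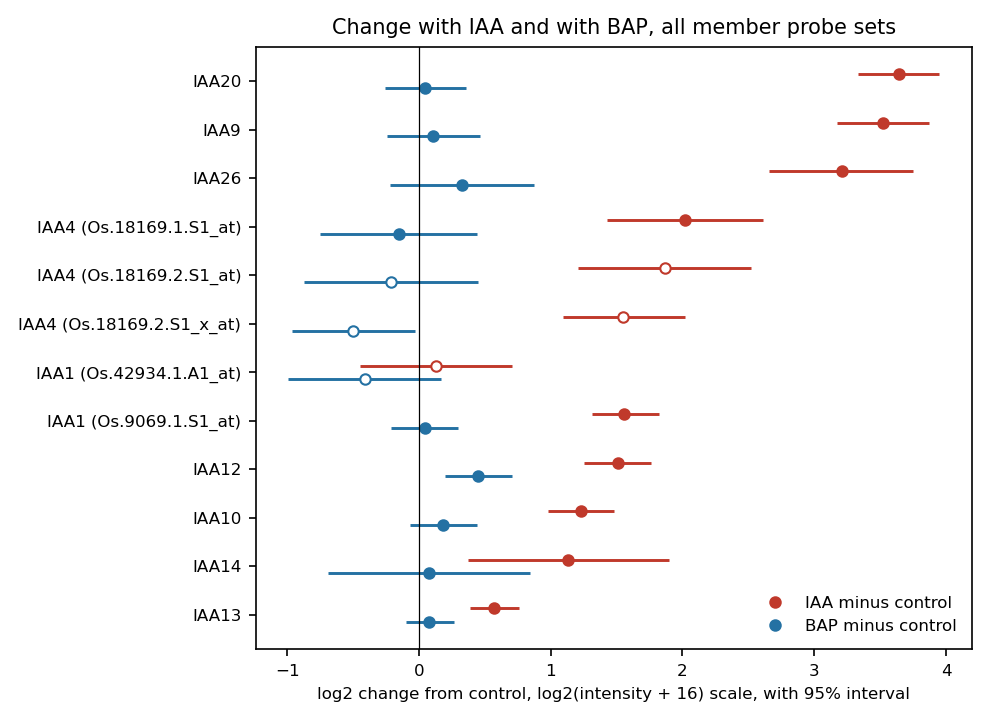
Log2 change from control (horizontal axis, log2(intensity + 16) scale) with IAA in red and BAP in blue for the 12 probe sets, with 95% intervals from limma. Filled points are the brightest probe set of a gene and open points the others. The BAP interval of IAA12, from 0.20 to 0.71, lies above 0, and that of 1 of the 3 IAA4 probe sets, from -0.96 to -0.03, lies below 0. Every red point lies to the right of its blue one. The IAA and BAP intervals overlap for IAA14 and for the second IAA1 probe set.

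IAA12 had the largest change with BAP, 0.45 (SE 0.11, 95% interval 0.20 to 0.71), with both arrays higher than both controls. Its limma adjusted p was 0.225, between 0.207 and 0.969 in the other settings, so it did not pass. The change was 0.38 to 0.53 with single arrays left out. IAA26 came next at 0.33 (SE 0.24, 95% interval -0.22 to 0.87, limma adjusted p = 0.881), a value set by BAP array 2, without which it was -0.03. For IAA20 the interval of the change with BAP was -0.26 to 0.36 and for IAA9 -0.24 to 0.46. For IAA1 it was -0.21 to 0.30, for IAA10 -0.07 to 0.44 and for IAA13 -0.10 to 0.27. Like those of IAA12 and IAA26, the intervals of IAA4 (-0.75 to 0.44) and IAA14 (-0.69 to 0.84) held changes of more than 0.5 in size. One of the 3 IAA4 probe sets was lower with BAP, at 20.5 and 15.9 against 27.0 and 38.1 in control, a change of -0.50 (SE 0.21, limma adjusted p = 0.621). The other 2 IAA4 probe sets overlapped between BAP and control.

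Set directly against each other, both BAP arrays lay below both IAA arrays in all 12 probe sets, beside 19.5% of all tested probe sets. The IAA arrays chose the genes, so the differences are given without a test. BAP minus IAA ranged from -3.59 for IAA20 to -0.49 for IAA13, with a median of -1.52 over the 9 genes. In the order of levels, IAA stood first for each of the 9 genes. BAP and control overlapped for IAA20, IAA9, IAA26, IAA4, IAA1 and IAA14.

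The 9 genes are not all of the Aux/IAA genes that were higher with IAA. Of 16 other Aux/IAA genes with a tested probe set, 2 rose and 0 fell in limma, beside 0.632% of all tested probe sets called higher and 0.219% called lower. At an unadjusted p under 0.05 in limma there were 8 of the 16, in either direction, beside 10.8%. For 10 of the 16 both IAA arrays lay above both control arrays, beside 21.1%, and for 3 both lay below, beside 7866 of the 34316 tested probe sets. A dimmer IAA3 probe set changed by 0.88 (SE 0.21) and was not called, against 0.05 (SE 0.08) on its brightest. IAA24 rose from 639 and 664 in control to 2330 and 1523 in IAA arrays, a log2 change of 1.51 (SE 0.18, limma adjusted p = 0.00655). IAA15 rose from 1751 and 1952 to 3865 and 3570, a change of 1.00 (SE 0.12, limma adjusted p = 0.00520). Both lost the call without control array 1, without the filter and without the intensity trend, and IAA15 also without IAA array 1 (limma adjusted p up to 0.0847 for IAA24 and 0.0999 for IAA15 over all settings). Nearest the threshold, IAA13 was the last gene called higher, and IAA31, at 0.51 (SE 0.12), was the first of the higher genes not called. Beside them IAA7 read -0.70 (SE 0.15) and was not called. The other 16 genes had a median change of 0.23 with IAA and 0.01 with BAP, and 0 of them were called with BAP (3 at an unadjusted p under 0.05 in limma, beside 7.57% of all tested probe sets).

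**Figure D4:**
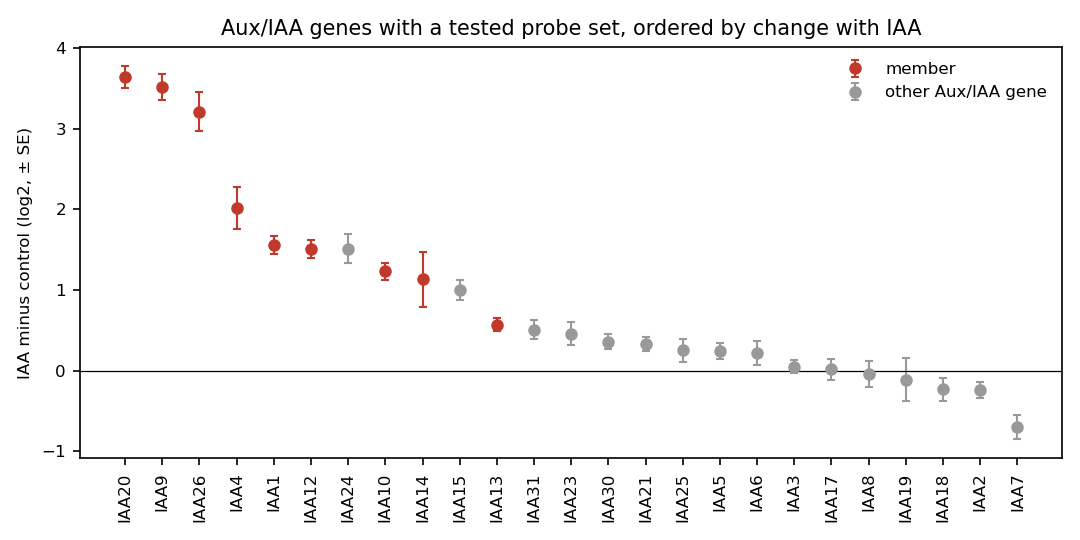
Log2 change with IAA against control (vertical axis, ± SE) for the 25 Aux/IAA genes with a tested probe set, in order of size, with the 9 genes described here in red and the other 16 in grey. IAA24 at 1.51 and IAA15 at 1.00 lie among the red points, and IAA7 is lowest at -0.70.

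The known partners of Aux/IAA proteins were counted in the same fit. The transcription factors that these repressors bind are the auxin response factors. Of 16 such genes 2 were called higher with IAA and 0 lower, beside 0.632% and 0.219% of all tested probe sets. At an unadjusted p under 0.05 in limma there were 7 of the 16, beside 10.8% of all tested probe sets. ARF10 rose from 126 and 139 to 340 and 315, a log2 change of 1.21 (SE 0.14, limma adjusted p = 0.00583), and ARF23 rose from 1084 and 1131 to 2147 and 1714, a change of 0.78 (SE 0.12, limma adjusted p = 0.0238). Without control array 1 or IAA array 1 neither was called, and ARF23 was also not called without control array 2, without the filter or without the intensity trend (limma adjusted p up to 0.0850 for ARF10 and 0.210 for ARF23 over all settings). Of 3 TOPLESS corepressor genes 0 were called with IAA (0 at an unadjusted p under 0.05 in limma, beside 10.8% of all tested probe sets), with changes between -0.27 and -0.07. No TIR1/AFB receptor gene was named by the gene table used here. The median change was 0.29 for the response factors and -0.17 for the corepressors, against -0.01 over all tested probe sets.

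Other genes of auxin supply and response followed. The enzymes of the 9 GH3 genes join auxin or related acids to amino acids. Of these genes 4 were called higher and 0 lower with IAA, beside 0.632% and 0.219% of all tested probe sets. They were led by GH3-4 at 2.66 (SE 0.19) and GH3-2 at 2.60 (SE 0.19). Each of these 2 had a limma adjusted p of 0.000529 and was called in all 13 other settings. The 4 PIN auxin carrier genes, the 2 auxin synthesis genes (TAR2 and YUCCA1) and SAUR39 held 0 calls with IAA (1, 0 and 0 at an unadjusted p under 0.05 in limma, beside the 10.8% of all tested probe sets). With BAP, 0 genes of these lists or of the response factors and corepressors were called, with 5 at an unadjusted p under 0.05 in limma, beside 7.57% of all tested probe sets.

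Genes next to the 9 on the chromosome were looked up in the RefSeq gene order of a japonica assembly. The 9 genes have 18 immediate protein-coding neighbours, of which 15 had a tested probe set. With IAA, 0 of these 15 were called (3 at an unadjusted p under 0.05 in limma, beside 10.8% of all tested probe sets), their changes lay between -0.46 and 0.57, and their median was 0.03. One neighbour of IAA12 is another Aux/IAA gene, IAA11, which had no probe set of its own.

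The genes with the pattern most like the 9 were sought by the Pearson correlation, over the 6 arrays, of each of 2861 tested probe sets with a gene name outside the family with the mean profile of the 9. These correlations are mostly the step between the 2 IAA arrays and the other 4, and the genes found were therefore chosen by the same contrast. DAO, the dioxygenase gene of auxin oxidation, ranked first (r = 0.994). It read 1119 and 1239 in control, 4043 and 3366 in IAA and 1129 and 1360 in BAP arrays. The cytochrome P450 gene CYP87A3 (r = 0.993) and GH3-4 (r = 0.993) followed. CLA1, a gene of plastid isoprenoid synthesis, and the NAC transcription factor gene NAC067 both had r = 0.988. CLA1 changed by 0.69 (SE 0.11) with IAA on this probe set and by 0.20 (SE 0.27) on its second one. Within the 9 genes, the correlation with their own mean profile was between 0.968 and 0.996 for 8, and 0.827 for IAA14. Each gene is part of that mean and was chosen for its rise with IAA, so high values here follow from the choice.

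**Figure D5:**
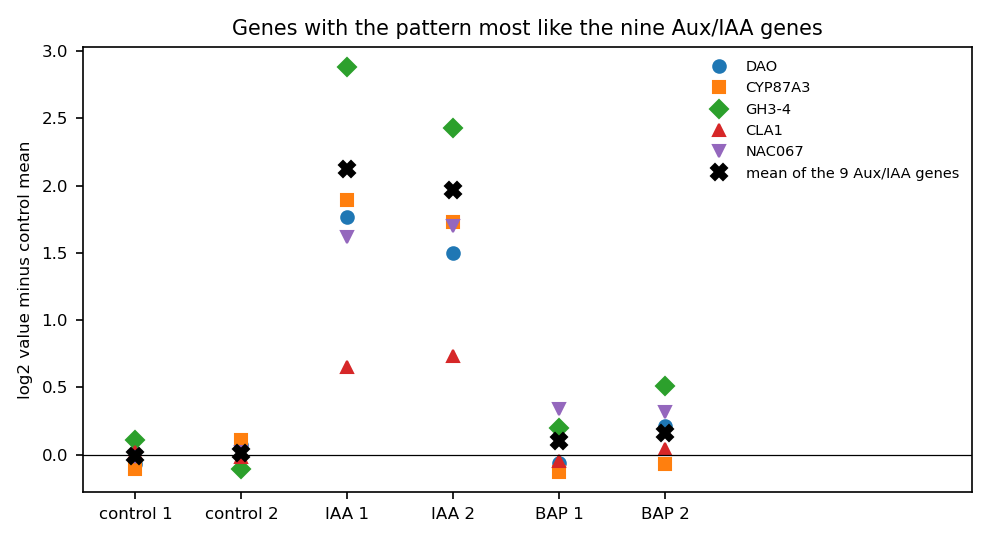
Log2 value minus the control mean (vertical axis) on each of the 6 arrays for the mean of the 9 Aux/IAA genes (black crosses) and the 5 genes with the most similar pattern. The mean of the 9 stands at 2.12 and 1.97 on the IAA arrays and at 0.10 and 0.16 on the BAP arrays, and the step of CLA1 is the smallest of the 5.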

How the data were processed

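The deposited value table gives 1 linear intensity per probe set and array for 57381 probe sets; background correction and probe summary by the authors are not given in the sources used here. Per the file headers, run day and fluidics module were read from the experiment files. After leaving out 187 array controls, values were taken as log2(intensity + 16) and quantile normalized, because array medians differed by up to 0.262. This understates changes of dim genes. Probe sets under the 40th percentile of mean log2 value were removed, which left 34316. Printed intensities are normalized values with 16 subtracted again, and deposited ones are named as such.

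Group means were fitted over all 6 arrays with limma 3.58.1 in R 4.3.3 (3 residual degrees of freedom, intensity trend), with Benjamini-Hochberg adjusted p under 0.05 over the tested probe sets as a call. All p are two-sided. Tables were read and drawn with Python 3.11.15, pandas 2.3.3 and matplotlib 3.10.9. Names came from the platform annotation matched to a RefSeq gene table: 22436 probe sets have 1 gene and 95 several. The samples are indica and the table japonica, so no coordinates are printed. The fit was tested on simulated data.

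The 9 genes and all lists were chosen with earlier results of these data known. Named besides them were the 5 genes of most similar pattern and up to 2 called genes per auxin list. For each gene the brightest probe set was used. LAX1, LAX2 and pinA were not counted as auxin carriers. No label says whether samples came from separate plantings, so p-values measure the spread between these samples, which may be technical. Alternatives were other scaling, added constants of 1 and 64, no filter, no intensity trend, the replicate number as a block, each array left out, and the mean of a gene's probe sets.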

Additional observations from a re-analysis of the deposited data

How the results depend on the processing

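Only 2 arrays per group limit every value, and with 1 array left out the lone array is assumed to vary like the other groups. The median change of the 9 genes with IAA (1.56) was 1.44 with 64 added and 1.46 to 1.74 with single arrays left out. Their median BAP minus IAA (-1.52) was -1.47 without rescaling, -1.57 with median centring, -1.38 with 64 added, -1.06 with the mean of a gene's probe sets and -1.66 to -1.49 with single arrays left out. With BAP, 0 of the 9 genes were called in all 13 settings. Between 6 and 8 of the 9 were called with IAA, the lowest count without control array 1, without IAA array 1, without the filter and without the intensity trend. The second IAA1 probe set changed by -0.01 to 0.27 with IAA when single arrays were left out, with the negative value without control array 2. The median BAP minus IAA of -1.52 was the value of IAA1, whose second probe set had -0.54, and -1.06 was that of IAA12. Taking the mean of a gene's probe sets thus moved the median from IAA1 to IAA12. The cause of the other shifts was not tested. Over all tested probe sets, calls with IAA (292) were 505 without rescaling, 68 without the filter, 92 without the intensity trend and 85 to 288 with single arrays left out. Calls with BAP (94) were 215 without rescaling, 60 with median centring, 14 without the filter, 13 without the intensity trend and 13 to 92 with single arrays left out. Samples of the same replicate number shared little deviation: correlations of same-numbered deviations between groups were 0.0174, 0.0264 and -0.0595. These values do not show how the samples were grown or paired. With the replicate block the medians were 1.56 and -1.52, and 320 and 95 probe sets were called.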
